A study of Rattus norvegicus with 30 samples.

Results

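The comparison of soy protein with casein in diets without added isoflavone used 10 of the 30 liver arrays of the study. They are the 5 arrays titled soy protein diet (S) and the 5 titled casein diet (C), taken by title alone. All 30 livers came from male Sprague-Dawley rats, an outbred laboratory stock, with 5 animals on each of 6 diets and 1 Affymetrix array per animal. Protein made up 200 g/kg of either diet, as soy protein in S and as casein, the main protein of milk, in C. The soy protein diet with isoflavones (SI) and the casein diet with isoflavones (CI), also 5 arrays each, served here as the same exchange of protein in other animals. The other diets held tofu protein, at 200 g/kg alone or at 100 g/kg with 100 g/kg of casein. Arrays of the tofu diets are not compared here, but they entered the choice of probe sets and the estimate of spread. Rats arrived at 4 weeks of age, ate a commercial non-purified diet for 5 days and then the experimental diet for 14 days, with free access to food and water. The isoflavone that the soy protein itself carried, and whether animals were fasted before the liver was taken, are not stated in the sources used here.

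Soy protein holds less methionine than casein, and rats on it are known for lower liver and plasma lipids. The liver makes fatty acids and sterols with enzymes that the SREBP transcription factors induce, and insulin, thyroid hormone and carbohydrate supply act on the same genes. When an amino acid runs short, the factor ATF4 is known to induce asparagine synthetase and amino acid transporters. Hepcidin, the liver hormone that closes the iron exporter of gut and macrophages, is induced by iron through BMP signalling and by inflammation through STAT3.

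Values below are the deposited intensities, which are linear and normalized between arrays, and the sources used here do not state the level they refer to. A difference is the mean log2 intensity of S minus that of C, ± SE, with 5 animals per diet. Adjusted p-values are from limma, with 1 spread per probe set estimated over all 6 diets. The median intensity of an array was 227.0 to 237.05 in S and 227.65 to 239.95 in C (exact permutation test, two-sided, p = 0.2778). The ratio of 3' to 5' Gapdh signal, a sign of RNA integrity, was 1.06 to 1.25 in S and 1.01 to 1.19 in C (exact permutation p = 0.3175). The same ratio for beta-actin was higher, 2.31 to 2.78 in S and 2.21 to 2.65 in C (exact permutation p = 0.3968). Each of the 10 arrays correlated with the others of its diet at 0.966 to 0.973 on average. The labels can be set against the tissue: the hepatocyte markers *Ttr* and *Cps1* stood at 64775.5 to 75867 and 29268 to 35327 in S and at 62989 to 79146 and 28635 to 39010.2 in C. No gene on the array can check the diet itself.

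The first question was which liver genes differed when soy protein replaced casein. Livers on soy protein held more RNA of the plasma proteins *A2m* (3.77 ± 0.37) and *Serpina7* (3.29 ± 0.53) and of the enzyme *Mat2a* (2.31 ± 0.18). They held less RNA of the lipid gene *Pnpla3* (-4.36 ± 0.47), the transcription factor *Onecut1* (-3.50 ± 0.89) and the receptor *Prlr* (-2.07 ± 0.33). Of 10699 tested genes, 409 were higher in S (3.82%) and 446 lower (4.17%), 855 in all (7.99%). Among probe sets, 1351 of 18625 passed (7.25%), 556 of them higher (2.99%) and 795 lower (4.27%). The share of calls that were higher was 41.2% on the deposited scale, but 55.8% after quantile normalization, 51.0% after median centring and 54.9% with equal median and spread, so neither direction can be called the more common. Without S replicate 2 the count of probe sets was 898. The S and C arrays did not overlap at all for 902 genes (8.43%), with S above C for 4.03% and below for 4.4%. Among the 12 genes with the largest increase, all 12 were free of overlap, and so were 7 of the 12 with the largest decrease. These genes were chosen by the same difference between the same arrays, so their separation is not further support.

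**Figure D1:**
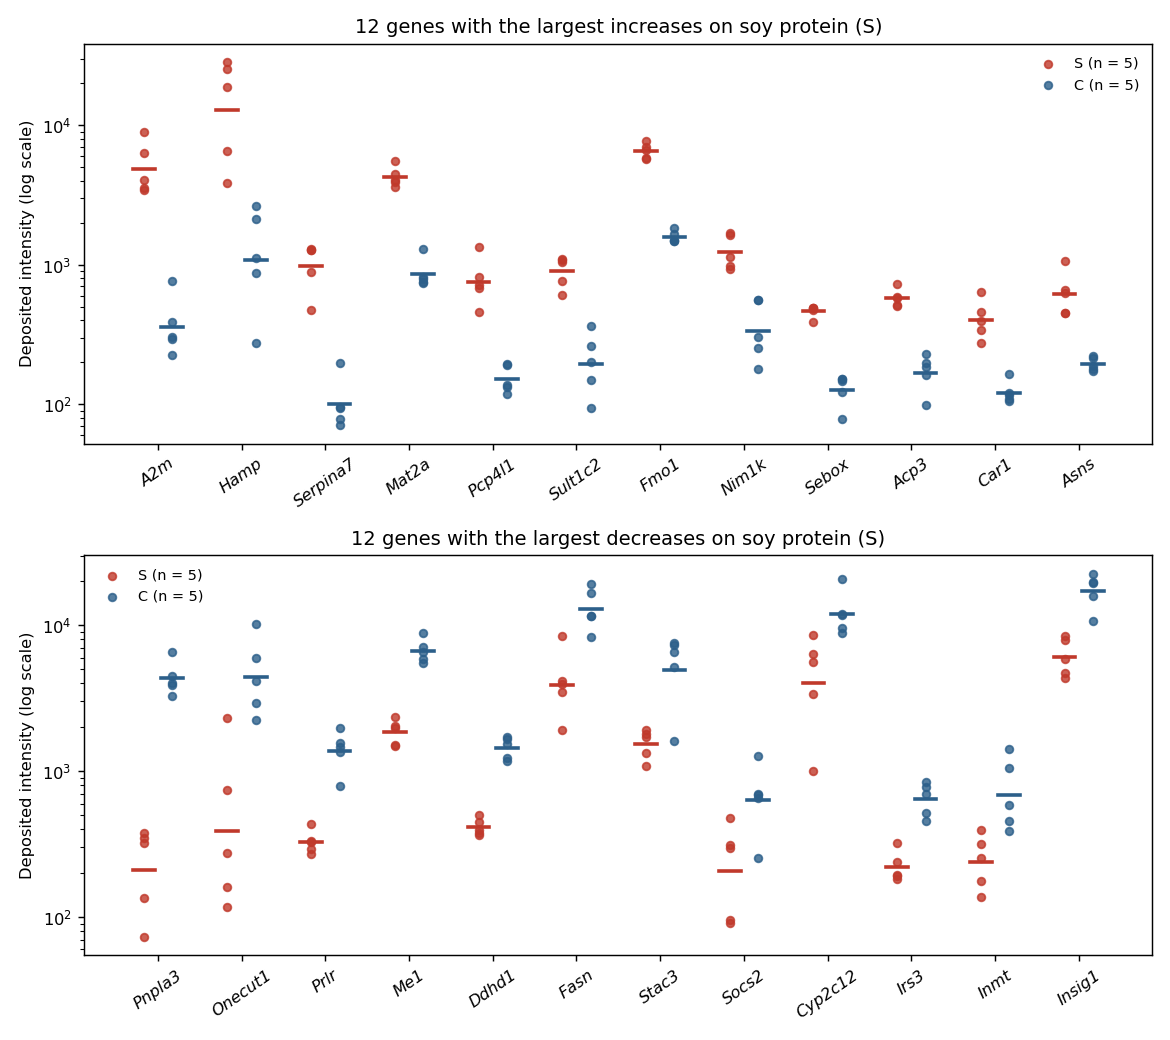
Deposited intensity (log scale) of the 12 genes with the largest increase (top) and the 12 with the largest decrease (bottom) in S, each point an array, S left of C, with the mean of the log2 values as a bar. Each gene in the top panel has its 5 S points above its 5 C points, and in the bottom panel *Onecut1*, *Fasn*, *Stac3*, *Socs2* and *Inmt* overlap.

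Genes were then read in 16 groups by what they are known to do. The fatty acid synthesis, sterol synthesis and growth hormone groups had 11, 6 and 9 members called lower and 0 higher. Shares are to be read against the 7.99% of all tested genes and their median difference of -0.03. These lists, and the cell type lists below, were drawn up with earlier results of these data known. A share above that of all genes is therefore not independent support. With equal median and spread between arrays, *Sc5d*, *Baat*, *Acadl*, *Eci1*, *Bhmt2*, *Ass1*, *Gls2*, *Ghr*, *Hnf4a*, *Cyp2c12*, *Inmt* and *Insig1*, all named below, kept their direction and lost their calls (adjusted p 0.0525 to 0.252).

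**Figure D2:**
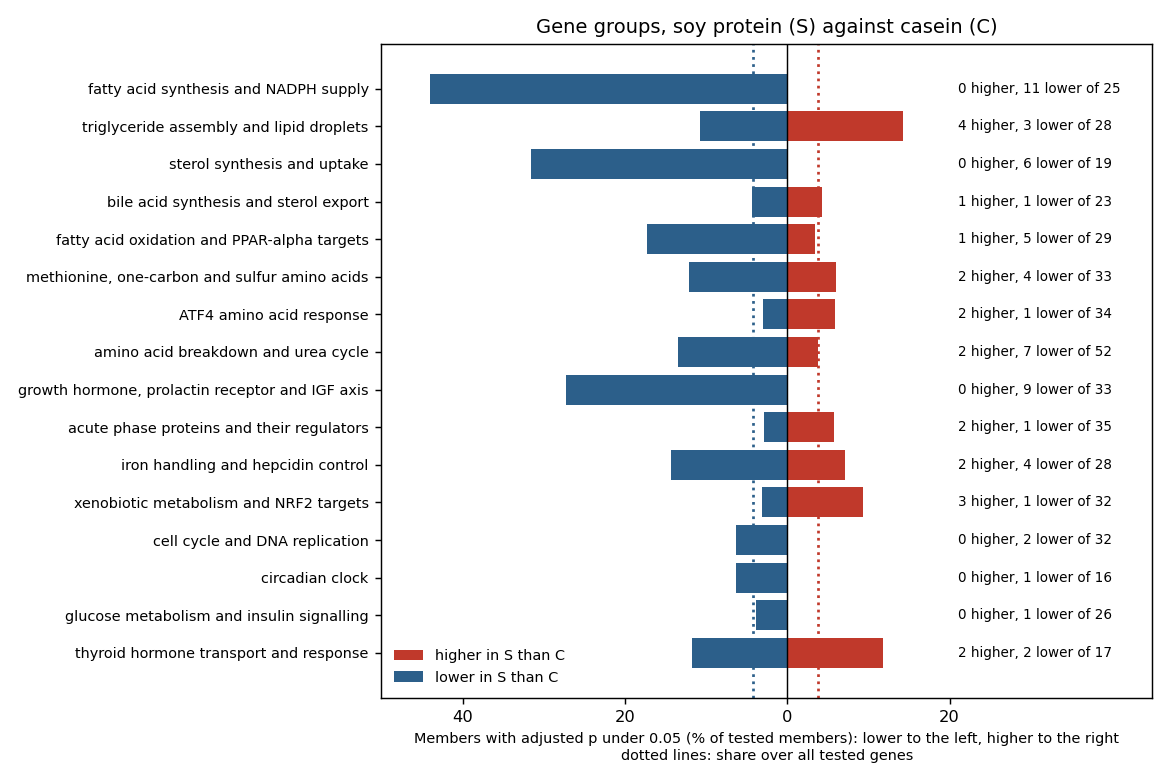
Share of the tested members of 16 gene groups with adjusted p under 0.05 in S against C, higher to the right and lower to the left, with the counts printed at the right. Dotted lines mark the shares over all tested genes, 3.82% higher and 4.17% lower. Fatty acid synthesis (11 of 25 lower), sterol synthesis (6 of 19) and the growth hormone axis (9 of 33) extend farthest to the left.

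Fatty acid synthesis genes were lower in S. Of 25 tested genes that make fatty acids or supply their NADPH, 11 fell and 0 rose, with a median difference of -0.49. *Pnpla3*, a lipid droplet protein that the SREBP factors induce, belongs to the triglyceride group but showed the largest decrease of any named gene. Its intensity was 319, 349, 73.2, 376 and 134.5 in S livers, against 6579, 4481, 3995, 3276 and 3889 in C livers. The groups were far apart, and the highest S liver stood well below the lowest C liver. The difference was -4.36 ± 0.47 (adjusted p = 1.18e-06), and the 3 probe sets of the gene gave -4.36, -3.16 and -5.17. *Me1*, the cytosolic malic enzyme that yields NADPH, had 2360.3, 2025, 1973, 1514 and 1490.5 in S livers and 8801, 5547, 5832, 6522 and 7058 in C livers, again without overlap, a difference of -1.85 ± 0.19 (adjusted p = 2.5e-07). *Fasn*, fatty acid synthase itself, was more scattered. It measured 8363, 3945, 1926, 4142 and 3503 in S and 16529, 19259, 11633.5, 8292 and 11534 in C, where S replicate 1 lay above C replicate 4 and the groups overlapped nowhere else. Its difference of -1.72 ± 0.47 passed (adjusted p = 0.0212), a call lost without S replicate 3, C replicate 1 or C replicate 2 (difference then -1.63 to -1.46, adjusted p 0.0515 to 0.0681).

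The members that fell covered several steps. *Acacb*, the acetyl-CoA carboxylase at the mitochondrial surface, fell by 1.11 ± 0.18, and *Aacs*, which turns acetoacetate into an acetyl unit for synthesis, fell by 1.10 ± 0.19. *Fads2*, a desaturase of polyunsaturated fatty acids, fell by 1.02 ± 0.16. For each of these 3 genes all S livers lay under all C livers. *Acss2*, which activates acetate, gave -0.70 ± 0.17 without overlap, while the elongase *Elovl2* gave -0.73 ± 0.17, with S replicate 1 above C replicate 2. Well-known members of the pathway did not pass. *Acaca*, the carboxylase that commits carbon to synthesis, had 3988, 2972, 2827, 3452 and 2738 in S and 4203, 4950.2, 5002, 3867 and 5278 in C (difference -0.55 ± 0.18, adjusted p = 0.0651), but its call depended on the setting. The same probe set passed without S replicate 1 (-0.63, adjusted p = 0.0451) and with only the S and C arrays in the fit (adjusted p = 0.0238), the dimmer probe set of the gene gave -0.74 ± 0.19 (adjusted p = 0.0151), and the mean of both gave -0.65 (adjusted p = 0.0213). The stearoyl-CoA desaturase *Scd* had 24384, 21833.5, 25586, 24412 and 18010.5 in S and 34308, 29770.3, 33203, 27043 and 36283 in C. Its 5 S livers all lay below its 5 C livers, yet with the spread taken over all 6 diets the difference of -0.49 ± 0.28 did not pass (adjusted p = 0.325). With only the S and C arrays in the fit, *Scd* passed (adjusted p = 0.0241). That fit also lost calls: *Socs2*, *Cyp2c12*, *Kmo*, *Hsd3b7*, *Hnf4a*, *Ireb2*, *Pdk4*, *Eif4ebp1* and *Smad5*, all named below, kept the same differences and no longer passed (adjusted p 0.0623 to 0.093). *Srebf1*, the SREBP gene that drives fatty acid synthesis, and *Thrsp*, a lipogenic nuclear protein, gave -0.70 ± 0.36 and -0.49 ± 0.23 (adjusted p = 0.272 and 0.205).

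**Figure D3:**
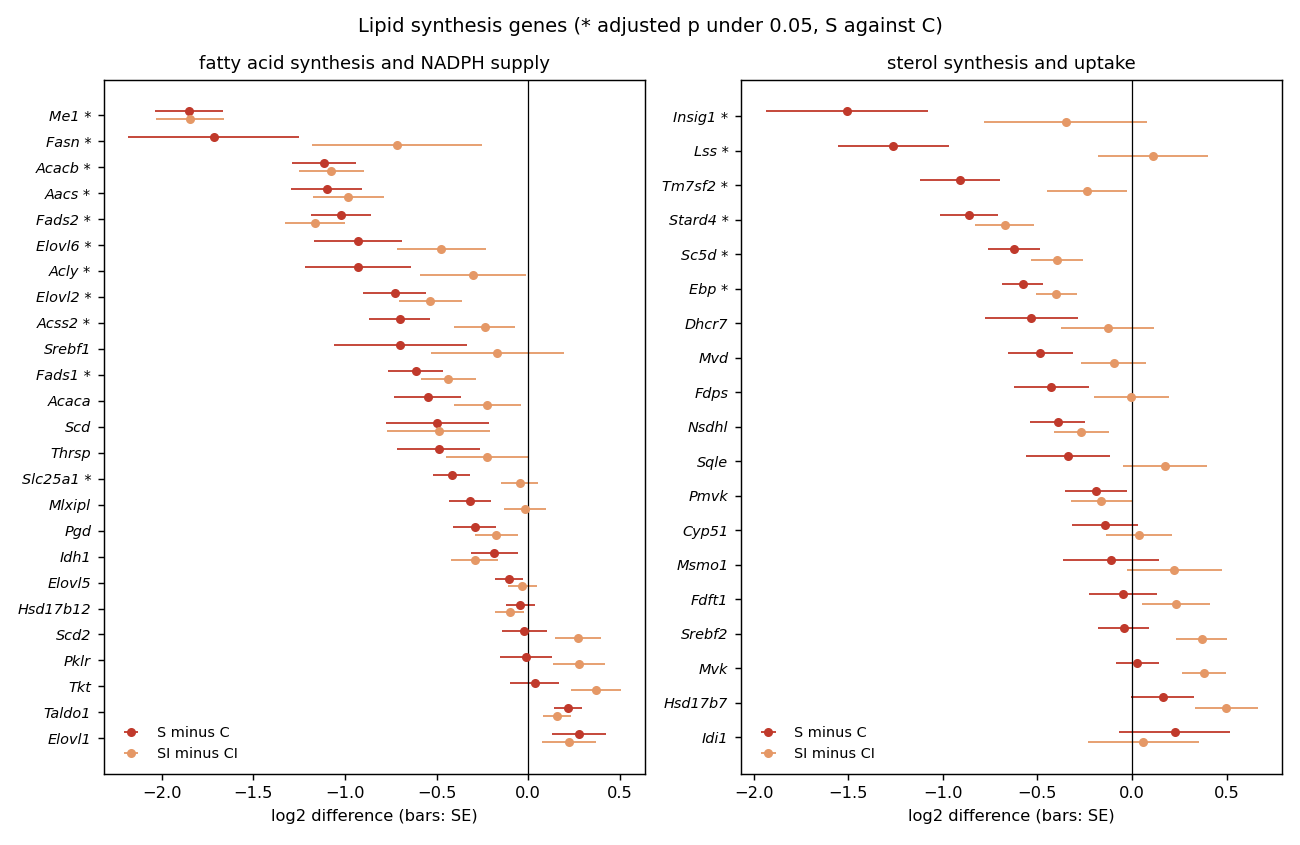
Log2 difference (points, with SE bars) of every tested member of the fatty acid (left) and sterol (right) synthesis groups for S minus C and, under it, SI minus CI, in order of the S minus C value. An asterisk marks adjusted p under 0.05 in S against C. All marked genes lie left of 0 for S minus C, and for the 6 marked sterol genes the SI minus CI points lie closer to 0.

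The triglyceride and lipid droplet genes moved both ways. Of 28 tested, 4 rose and 3 fell, with a median of -0.02. Beside *Pnpla3*, the phospholipase *Ddhd1* was lower, at 367, 501, 393, 446.5 and 377 in S and 1714, 1171, 1237, 1531 and 1656 in C, a difference of -1.80 ± 0.20. *Mgll*, which releases the last fatty acid of a glyceride, fell by 0.72 ± 0.13. The lysophospholipid acyltransferase *Agpat3* was higher, with 1762.5, 1874, 1929.9, 2069 and 2006 in S and 915, 874, 1229, 1134 and 1220.3 in C. Its difference was 0.86 ± 0.13 (adjusted p = 8.74e-05), but 2 of its 4 probe sets had small negative differences and their mean of 0.24 did not pass (adjusted p = 0.146). The carboxylesterase *Ces1d* rose by 0.77 ± 0.16. *Cidea*, a droplet protein of adipose tissue and fatty liver, rose by 0.67 ± 0.18 (adjusted p = 0.0166) and lost its call without S replicate 4 or C replicate 1 (difference then 0.53 to 0.60, adjusted p 0.0513 to 0.0636).

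Sterol synthesis genes were lower in S as well. Of 19 tested, 6 fell and 0 rose, and 16 of the 19 differences were negative, with a median of -0.39. The count was 10 with only the S and C arrays in the fit. *Insig1*, which holds the SREBP precursor in the endoplasmic reticulum and is itself an SREBP target, showed the largest difference of the group. Its promoter is shown because it holds an E-box, a sequence that SREBP and other helix-loop-helix factors can bind. From 250 bases before to 50 after the RefSeq start it lies at chr4:8057720-8058019 on the minus strand of GRCr8, with the only CACGTG in capitals, at -79 to -74:

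Insig1: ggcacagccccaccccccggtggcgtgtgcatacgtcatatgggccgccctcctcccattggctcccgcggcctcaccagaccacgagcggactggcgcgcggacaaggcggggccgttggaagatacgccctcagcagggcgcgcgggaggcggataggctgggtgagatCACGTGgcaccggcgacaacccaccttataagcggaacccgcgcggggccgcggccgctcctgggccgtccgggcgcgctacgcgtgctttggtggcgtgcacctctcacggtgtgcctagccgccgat

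CACGTG, its own reverse complement, stood in 6.65% of 27457 RefSeq promoters of the same length and in 2 of the 15 sterol genes that had one (*Insig1* and *Sc5d*). The sterol regulatory letters TCACNCCAC, searched on both strands, stood in 1.13% of all promoters and in 0 of these 15.

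The intensity of *Insig1* was 5870.0, 7958, 4350.5, 8403 and 4672 in S livers and 15936, 19854, 22536, 10656 and 19436 in C livers. No S liver reached the lowest C liver, and the difference was -1.51 ± 0.43 (adjusted p = 0.0283). The call was lost without any one of S replicates 1, 3 and 5 and C replicates 2, 3 and 5 (difference then -1.50 to -1.39, adjusted p 0.0515 to 0.0755). *Lss*, lanosterol synthase, which closes the sterol ring, had 654, 522, 869, 1174 and 1073 in S and 1535, 1902, 2332, 2228 and 1955 in C, with all S livers lower, and differed by -1.26 ± 0.29 (adjusted p = 0.00676). *Tm7sf2*, a sterol reductase, fell by 0.91 ± 0.21, *Stard4*, a carrier of cholesterol between membranes, by 0.86 ± 0.16, *Sc5d*, a sterol desaturase, by 0.62 ± 0.14 and *Ebp*, a sterol isomerase, by 0.58 ± 0.11, each without overlap. The mean of the 3 probe sets of *Stard4* gave -0.32 and did not pass (adjusted p = 0.0839). *Sqle*, squalene epoxidase and a sensitive SREBP target, had 765, 738, 732, 837 and 936 in S and 941, 636, 1166, 1334.5 and 1120.3 in C, and the groups overlapped (difference -0.34 ± 0.22, adjusted p = 0.405).

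The genes that remove sterols differed less clearly. Of 23 genes of bile acid synthesis and sterol export, 1 rose and 1 fell, near the background share. *Hsd3b7*, an early enzyme of bile acid synthesis, rose by 0.85 ± 0.23 (adjusted p = 0.0236), with its call lost without S replicate 1, S replicate 3 or C replicate 2 (difference then 0.58 to 0.79, adjusted p 0.0555 to 0.0799). *Baat*, which couples bile acids to taurine and glycine, fell by 0.40 ± 0.10. Beyond these, *Cyp7a1*, the rate-limiting enzyme of the classical pathway, had 2451, 451, 348, 1791 and 1709 in S and 324, 475, 391, 1456.5 and 551 in C. A pair of S livers lay among the C livers and the other three above them all, and the difference of 0.92 ± 0.59 did not pass (adjusted p = 0.392). The paired subunits of the biliary sterol exporter, *Abcg5* and *Abcg8*, gave 0.82 ± 0.35 and 0.98 ± 0.42 (adjusted p = 0.162 and 0.158). Their levels went together across livers: S replicate 3 was highest for both, at 1333 and 502.0, and the C mean of *Abcg8* lay under the level used to leave out dim probe sets, 167.55. The count of this group was 4 without S replicate 5 and 1 without C replicate 2.

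Most fatty acid oxidation genes did not pass. Of 29 oxidation genes and PPAR-alpha targets, 5 fell and 1 rose, with a median of -0.12, and the 6 calls became 3 with equal median and spread between arrays. *Pdk4*, the kinase that blocks pyruvate use in fasting, had 1344, 2175, 4259, 1123 and 2802 in S and 4398, 4092, 3869, 4044 and 5681 in C. S replicate 3 stood among the C livers and the other four below, and the difference of -1.07 ± 0.30 (adjusted p = 0.024) no longer passed without S replicate 1, S replicate 4 or C replicate 5 (difference then -0.98 to -0.85, adjusted p 0.0651 to 0.0867). *Acot2*, *Acadl* and *Eci1*, mitochondrial enzymes of fatty acyl-CoA hydrolysis, dehydrogenation and isomerization, fell by 0.60 ± 0.14, 0.33 ± 0.08 and 0.67 ± 0.18. Dimmer probe sets of *Acot2* gave -0.57 and -0.48 and did not pass (adjusted p = 0.0812 and 0.192), while the mean of its probe sets passed. The mean of the 2 probe sets of *Eci1* gave -0.36 and did not pass (adjusted p = 0.542), and *Acadl* gave -0.31 after median centring, where it no longer passed (adjusted p = 0.0674). *Vnn1*, a pantetheinase and PPAR-alpha target in rodents, was the gene that rose, by 0.84 ± 0.16, with 2609.9, 1998, 2459, 2212 and 2232 in S and 1402, 841.5, 1458, 1256 and 1605 in C. *Cpt1a*, which admits fatty acids to mitochondria, and *Ppara* itself gave -0.45 ± 0.29 and 0.43 ± 0.18, and neither passed (adjusted p = 0.402 and 0.162).

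The methionine cycle held a clear increase. *Mat2a*, the methionine adenosyltransferase of cells outside the adult liver, makes S-adenosylmethionine. It had 5531, 3946, 3588, 4481 and 4051 in S livers, against 1300.4, 739.6, 821, 748 and 790.0 in C livers. C replicate 1 stood apart from the other C livers and still lay well under every S liver. The difference was 2.31 ± 0.18, a fold of 4.98 (adjusted p = 5.55e-09). *Mat1a*, its counterpart of adult hepatocytes, differed by -0.42 ± 0.18 and did not pass (adjusted p = 0.159) except without S replicate 3 (adjusted p 0.0484 to 0.37). *Cbs*, which draws homocysteine into cysteine synthesis, was lower, with 3451, 2469, 3047.5, 4046 and 3722 in S and 4640.0, 6307, 7591, 6766.5 and 5157 in C, a difference of -0.86 ± 0.15 without overlap. *Csad*, the decarboxylase of taurine synthesis, rose by 0.66 ± 0.16, and the methyltransferases *Bhmt2* and *Inmt* gave -0.43 ± 0.10 and -1.53 ± 0.45. *Inmt*, which methylates tryptamine and related amines, lost its call without S replicates 2, 4 or 5 or C replicates 1 or 4 (difference then -1.55 to -1.27, adjusted p 0.0538 to 0.0985). Other well-known enzymes of the group did not pass. *Gnmt* gave -0.18 ± 0.15, *Bhmt* -0.16 ± 0.22 and *Cth* 0.22 ± 0.15, with adjusted p = 0.549, 0.738 and 0.427. Over the 33 tested genes of the group, 2 rose and 4 fell (median -0.08), and these 6 calls became 3 with equal median and spread.

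Asparagine synthetase was the ATF4 target that stood out. *Asns* had 451.5, 629, 662, 1065 and 448 in S and 173, 179.8, 220.2, 213 and 188 in C, a difference of 1.67 ± 0.24 (adjusted p = 5.29e-05). The lowest S liver was above the highest C liver by a wide margin. Most of the 34 tested ATF4 genes did not pass: 2 rose, 1 fell and 31 were not called, with a median of 0.11. *Atf4* itself had 3491, 5451, 4968.5, 5963 and 4297 in S and 8592, 5253, 5870.5, 5613 and 6755 in C (difference -0.41 ± 0.19, adjusted p = 0.207), and *Trib3*, a pseudokinase strongly induced by ATF4, gave -0.06 ± 0.18 (adjusted p = 0.896). *Aldh1l2*, a mitochondrial folate enzyme, fell by 0.64 ± 0.14. The other member called higher, the translation repressor *Eif4ebp1*, stood at the threshold (0.28 ± 0.09, adjusted p = 0.0499) and lost its call after median centring and without any single S or C array other than S replicate 5 (difference then 0.26 to 0.30, adjusted p 0.0591 to 0.113).

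Among genes of amino acid breakdown and the urea cycle 7 of 52 fell and 2 rose, with a median of -0.08, and the 9 calls became 4 with equal median and spread. *Oat*, ornithine aminotransferase, had 3805, 3939.6, 3979, 4691.5 and 3919.9 in S and 9463, 10101, 7189.9, 9632 and 8599.5 in C. The S livers were close together except for S replicate 4, and all lay below the C livers (difference -1.14 ± 0.23, adjusted p = 0.00248). *Ass1*, the urea cycle enzyme that joins citrulline and aspartate, fell by 0.56 ± 0.12, and the liver glutaminase *Gls2* fell by 0.48 ± 0.13, with its call lost without S replicate 1 or C replicate 2 (difference then -0.41 to -0.40, adjusted p 0.0569 to 0.0587). *Kmo* and *Afmid*, enzymes of tryptophan breakdown, fell by 0.39 ± 0.10 and 0.51 ± 0.11. Dimmer probe sets of *Afmid* gave -0.48 and -0.44 and did not pass (adjusted p = 0.0729 and 0.0805), while the mean of its probe sets passed. *Sdsl*, a serine dehydratase, rose by 0.44 ± 0.10. *Cps1*, the first enzyme of the urea cycle, gave -0.0008 ± 0.10 (adjusted p = 0.998). *Tat*, tyrosine aminotransferase, measured 2787, 1736, 2507, 6879.7 and 1875 in S and 6624, 10083, 7718.5, 3536 and 9953.5 in C. S replicate 4 lay among the C livers and C replicate 4 nearest the S livers, and the difference of -1.37 ± 0.46 (adjusted p = 0.0668) passed only without one or the other (adjusted p 0.0238 to 0.172).

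The largest increase of all was in *A2m*. It encodes alpha-2-macroglobulin, a protease inhibitor of plasma that is a major acute phase protein in the rat. Its intensity was 3405, 8916, 3572, 6339.6 and 4048 in S livers, against 226.5, 291, 388, 304 and 760.0 in C livers. The lowest S liver was several times brighter than the highest C liver, and the difference was 3.77 ± 0.37, a fold of 13.6 (adjusted p = 2.03e-07). *Orm1*, the acute phase alpha-1-acid glycoprotein, had 39278.5, 38412, 31191, 37711 and 38151 in S and 18264, 16530.4, 13532, 17719.9 and 21274 in C, a difference of 1.09 ± 0.16 (adjusted p = 6.6e-05). *Cp*, ceruloplasmin, the copper enzyme that oxidizes iron and rises in the acute phase, was lower instead. It had 10551, 10412, 9232, 8095 and 12594.5 in S and 32219.6, 15934, 17583, 16571 and 24769.6 in C, all S livers below all C livers, a difference of -1.03 ± 0.19. The dimmest of its 3 probe sets had a positive difference, 0.53 ± 0.19 (adjusted p = 0.095), and the mean of the 3 did not pass.

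The other acute phase genes did not pass. Of 35 tested, 2 rose and 1 fell (8.57%, next to 7.99% of all genes), and the median was 0.02. Haptoglobin (*Hp*) had 69751, 67047, 68998, 69008 and 67215 in S and 67513, 65460.0, 60362, 58666 and 68707 in C, C-reactive protein (*Crp*) a difference of 0.02 ± 0.07 and the fibrinogen chain *Fgb* one of 0.01 ± 0.08 (adjusted p = 0.42, 0.936 and 0.964). *Socs3*, induced by STAT3, gave 0.06 ± 0.15 (adjusted p = 0.865). *Stat3* had 1956, 2789, 9133, 2839 and 3194 in S and 2133.5, 3115, 3493, 2792 and 2281 in C. S replicate 3 was the single high value and the groups otherwise overlapped.

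Hepcidin was higher in S. *Hamp* had the second largest increase and its promoter carries elements known to answer to both of the signals named above, so it is shown here. The RefSeq window of GRCr8 is chr1:95300222-95300521 on the minus strand, from 250 bases before to 50 after the start. Capitals mark GGCGCC, the BMP-responsive letters, at -129 to -124, and TTCTTGGAA, a match to the STAT letters TTCNNNGAA, at -117 to -109, which do not overlap:

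Hamp: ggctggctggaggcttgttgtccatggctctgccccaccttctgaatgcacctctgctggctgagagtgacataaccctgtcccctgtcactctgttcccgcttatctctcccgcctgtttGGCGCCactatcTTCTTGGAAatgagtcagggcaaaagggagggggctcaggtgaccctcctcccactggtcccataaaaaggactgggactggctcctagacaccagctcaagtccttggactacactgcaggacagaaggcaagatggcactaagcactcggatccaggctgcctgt

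Searched on both strands, GGCGCC stood in 11.8% of 27457 promoters and in 4 of the 22 iron genes that had one. TTCNNNGAA stood in 8.68% of promoters and in 5 of 30 acute phase genes, so neither is rare.

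*Hamp* measured 28305, 6504, 25281, 18894 and 3855 in S livers, against 2126, 274, 871.5, 2629.6 and 1113.5 in C livers. All S livers lay above all C livers, but each group spread widely, and the difference of 3.56 ± 0.87 had the largest SE among the genes with the largest increases (adjusted p = 0.0102). In the iron group 2 of 28 tested genes rose and 4 fell, with a median of -0.10. *Hfe*, a membrane protein upstream of hepcidin, was the other that rose, with 2011, 2319, 2169, 2083 and 2121 in S and 1408.5, 1871, 1633.5, 1691 and 1453 in C (difference 0.42 ± 0.08, adjusted p = 0.000995). The RNA-binding iron regulatory proteins *Aco1* and *Ireb2* fell by 0.61 ± 0.14 and 0.62 ± 0.17, and *Ireb2* lost its call without S replicate 2, S replicate 3 or C replicate 1 (difference then -0.54 to -0.49, adjusted p 0.0744 to 0.11).

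The transferrin receptor gene *Tfrc*, whose transcript those proteins stabilize when iron is low, had 2355.5, 1488, 1387, 1789 and 3045 in S and 10008, 7853, 6574, 2609 and 2843 in C. C replicates 1, 2 and 3 were far above the S livers, and C replicates 4 and 5 lay within their range. The difference of -1.44 ± 0.53 did not pass (adjusted p = 0.0991) in the fit over all diets and passed with only the S and C arrays (adjusted p = 0.0428). The BMP ligand *Bmp6* gave -0.20 ± 0.20 and the BMP target *Id1* 0.07 ± 0.09 (adjusted p = 0.609 and 0.696). The 4 probe sets of *Bmp6* differed in sign, at -0.20, -0.15, 0.07 and 0.09. Whether BMP signalling had a part in the *Hamp* difference was not tested. *Tfr2*, the second transferrin receptor, gave -0.31 ± 0.17 (adjusted p = 0.285). The BMP signal carrier *Smad5* was called lower at -0.25 ± 0.07 (adjusted p = 0.0299). That call was lost without S replicate 1, S replicate 2 or C replicates 1, 3 or 5 (difference then -0.24 to -0.22, adjusted p 0.0611 to 0.0863), after each of 3 other scalings and for the mean of its 3 probe sets. Red blood cell markers, which blood left in the liver would bring, were called in 0 of 4, with all 4 differences negative and a summed intensity of 27228 to 45588 in S and 35454 to 48860 in C. Their part in the iron genes was not tested. In these bulk samples fewer cells of a type and less RNA per cell cannot be told apart.

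**Figure D4:**
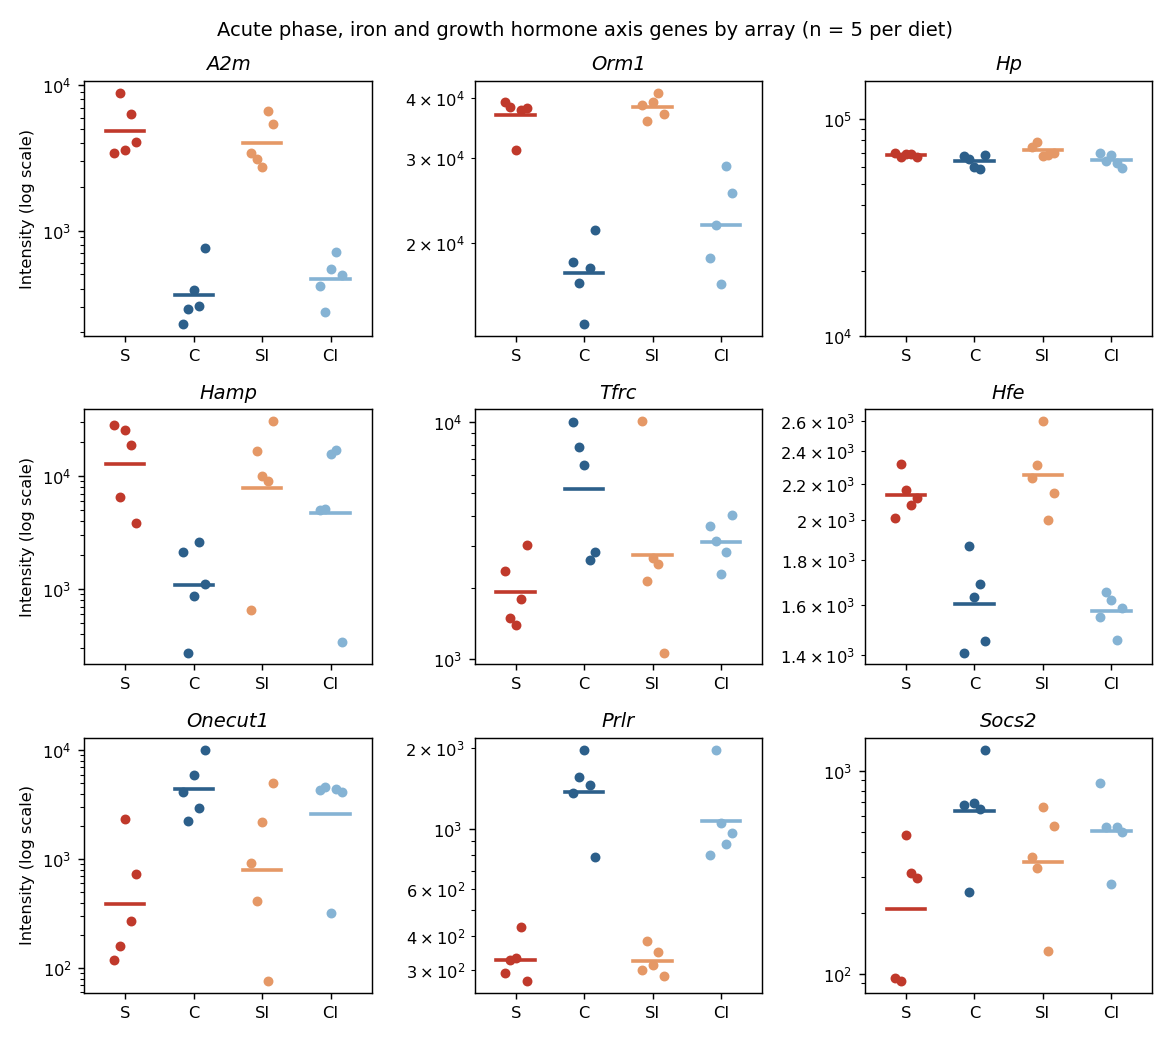
Deposited intensity (log scale) of 9 genes of the acute phase (top), iron (middle) and growth hormone axis (bottom) by array, for S, C, SI and CI, with the mean of the log2 values as a bar. *A2m* and *Orm1* separate S from C and SI from CI, *Hp* does neither, and *Hamp* and *Onecut1* separate less clearly between SI and CI.

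Several genes that answer to growth hormone or take part in its signalling fell. Of 33 tested, 9 fell and 0 rose (median -0.08), but 5 passed without C replicate 1, 5 without C replicate 3 and 5 with equal median and spread. By sign, 19 of the differences were negative and 14 positive. *Onecut1*, a liver transcription factor induced by growth hormone, had 118, 160.1, 2328.5, 273 and 738 in S livers and 4145, 2241, 5915, 2927 and 10181 in C livers. S replicate 3 reached the low end of the C livers, and the other S livers lay under all of them. The difference was -3.50 ± 0.89 (adjusted p = 0.0137), and a further probe set gave -2.69 ± 0.69. *Prlr*, the prolactin receptor, had 291, 326, 331, 432 and 271.5 in S and 1360.2, 1566, 1964, 1462 and 788 in C. These groups did not overlap, the difference was -2.07 ± 0.33 (adjusted p = 0.000189), and a further probe set gave -2.98 ± 0.48.

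*Stac3* had 1809, 1909, 1080.3, 1337 and 1711 in S and 7297, 6587, 1601, 7535 and 5207 in C. C replicate 3 alone lay in the S range, and the difference was -1.69 ± 0.42 (adjusted p = 0.0114). *Stac3* was placed in the list with earlier results of these data known, and no role in growth hormone action is claimed for it here. *Cyp2c7* and *Cyp2c12*, steroid-metabolizing cytochromes whose level in rat liver depends on the growth hormone pattern, fell by 0.87 ± 0.11 and 1.58 ± 0.45. The Cyp2c genes are related in sequence, so a probe set may read more than 1 of them. All livers here were male, and whether the *Cyp2c12* probe set read that gene in them was not tested. *Cyp2c12* lost its call without S replicate 3, S replicate 4, C replicate 1 or C replicate 3 (difference then -1.58 to -1.08, adjusted p 0.053 to 0.0961). *Socs2*, the feedback inhibitor that growth hormone induces, had 95.2, 91.5, 481, 313 and 295 in S and 681, 254, 698, 649.7 and 1275 in C. S replicates 3, 4 and 5 lay above C replicate 2, and the difference of -1.60 ± 0.46 (adjusted p = 0.0292) no longer passed without S replicates 1 or 2 or C replicates 1, 3, 4 or 5 (difference then -1.59 to -1.31, adjusted p 0.053 to 0.114). *Ghr*, the growth hormone receptor, fell by 0.42 ± 0.11 and *Hnf4a*, a general hepatocyte factor counted in the list, by 0.53 ± 0.14. *Ghr* lost its call without S replicate 3 or C replicate 1 (difference then -0.38 to -0.36, adjusted p 0.0546 to 0.0666), *Hnf4a* without C replicate 1 or C replicate 3 (difference then -0.44 to -0.42, adjusted p 0.0771 to 0.0792). As means of their probe sets they gave -0.34 and -0.35 and did not pass (adjusted p = 0.0611 and 0.0892).

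*Igf1*, the main endocrine product of growth hormone action in liver, depended on the probe set. The brightest had 30415, 29814, 28371, 27623 and 30983 in S and 35580.4, 31096, 29942, 28646 and 30737 in C and a difference of -0.08 ± 0.07 (adjusted p = 0.534). A dimmer probe set gave -0.85 ± 0.19 (adjusted p = 0.00447) and another -0.35 ± 0.13 (adjusted p = 0.0939). The mean of the 3 gave -0.43 and passed (adjusted p = 0.012). The probe sets were not assigned to transcript forms here.

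Among thyroid hormone genes, the carrier of thyroxine in plasma stood out. *Serpina7*, thyroxine-binding globulin, had 1273, 1292, 1277, 477 and 881 in S livers, against 96, 70.5, 78.3, 93.8 and 197 in C livers. The C livers were under or near the level used to leave out dim probe sets, and all S livers were clearly above it (difference 3.29 ± 0.53, adjusted p = 0.000178). The receptor *Thrb* fell by 0.47 ± 0.10. *Ttr*, the other thyroxine carrier, did not differ by the test (0.02 ± 0.07, adjusted p = 0.937). Of 17 tested, 2 rose and 2 fell, 23.5% called next to 7.99% of all genes. Those that fell were *Thrb* and *Me1*, which is also counted in the fatty acid group. *Nim1k*, a kinase counted among those that rose, was placed in the list with earlier results of these data known, and no role in thyroid hormone action is claimed for it here. It had 1135, 1701, 981, 1622 and 936 in S and 561, 179, 302, 255 and 559.8 in C, a difference of 1.88 ± 0.36 without overlap (adjusted p = 0.0014). *Irs3*, an insulin receptor substrate of rodents, had 193, 320.2, 183, 239.7 and 191 in S and 783, 844, 520.0, 701 and 455 in C (difference -1.54 ± 0.25), and it was the 1 of 26 glucose and insulin genes that passed.

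Among genes that act on foreign compounds, 3 of 32 rose and 1 fell. *Fmo1*, a flavin monooxygenase, had 5763, 6984, 7746, 6622 and 5794 in S and 1503, 1488, 1654, 1474 and 1817 in C. Both groups were tight and far apart, and the difference was 2.05 ± 0.18, a fold of 4.13 (adjusted p = 4.24e-08). *Sult1c2*, a sulfotransferase, had 1102, 1044, 610.1, 758 and 1082 in S and 199, 94.5, 149, 363 and 262 in C, a difference of 2.22 ± 0.39 without overlap. *Nr1i3*, the xenobiotic receptor CAR, had 1106, 1219, 2209.6, 1649.7 and 1759 in S and 711, 338, 434.5, 837 and 541.5 in C, a difference of 1.503 ± 0.330 (adjusted p = 0.00441). The glutathione transferase *Gsta1*, one of a family of near-identical genes, fell by 0.59 ± 0.12.

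The cell cycle and clock groups gave counts near the background. In the cell cycle 2 of 32 fell, *Ccnb2* (a mitotic cyclin) by 0.61 ± 0.18 and *Kif20a* (a mitotic kinesin) by 0.60 ± 0.19. The count was 0 without any one of S replicates 1, 3 and 4 and C replicates 2, 3 and 4, with adjusted p = 0.0216 to 0.0959 for *Ccnb2* and 0.0332 to 0.116 for *Kif20a* over the arrays left out, and both calls were lost after quantile normalization. Of 16 clock genes, *Nfil3*, a repressor of the clock output, was the 1 that fell, by 1.04 ± 0.28 (adjusted p = 0.0215), and its call was lost without S replicate 1, S replicate 4 or C replicate 4 (difference then -0.98 to -0.85, adjusted p 0.0506 to 0.0729).

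The remaining genes with the largest increases belong to none of these groups. *Pcp4l1* had 454, 675.5, 1332, 715 and 815 in S and 119, 138, 194, 191 and 132.5 in C, a difference of 2.31 ± 0.35 (adjusted p = 0.000114). *Sebox*, a homeobox gene, gave 1.87 ± 0.23, *Acp3*, an acid phosphatase, 1.78 ± 0.26 and *Car1*, a carbonic anhydrase that red blood cells also hold, 1.74 ± 0.28. *Car1* measured 395, 639.7, 276, 456 and 339 in S and 105, 165.5, 109, 116 and 119.8 in C. The red blood cell markers given above had negative differences, and their part in the value of *Car1* was not tested. The C means of *Pcp4l1*, *Sebox*, *Car1*, *Slc1a2*, *Serpina7* and *Kcns2* lay below the 167.55 that marks dim probe sets, so their differences rest on dim C values.

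Called markers of the hepatocyte zones moved both ways. Of 10 pericentral markers 3 rose and 2 fell, 50% called next to 7.99% of all genes. Of 9 periportal markers 1 rose and 2 fell, 33.3% called. By sign, 8 pericentral differences were positive and 2 negative (median 0.24), and 4 periportal ones were positive and 5 negative (median -0.16). In SI against CI, 6 pericentral markers were called higher and 2 lower, and 3 periportal ones higher and 1 lower. *Slc1a2*, a glutamate transporter of the last cell layers around the central vein, had 304, 314, 281, 257 and 275 in S and 153, 162, 104, 124 and 105 in C, a difference of 1.17 ± 0.23. *Slc13a3*, a dicarboxylate transporter, rose by 1.03 ± 0.18, and glutamine synthetase (*Glul*) rose by 0.45 ± 0.12, and *Glul* lost its call without S replicate 3 or C replicate 2 (difference then 0.35 to 0.37, adjusted p 0.0704 to 0.0783). Dimmer probe sets of *Glul* gave 0.50 and 0.32 and did not pass (adjusted p = 0.119 and 0.125), while the mean of its probe sets passed. *Oat*, of the same zone, was lower, as given above, and so was *Rnase4*, a secreted ribonuclease, by -0.80 ± 0.17. On the periportal side *Aldh1b1*, a mitochondrial aldehyde dehydrogenase, was higher, with 4075.5, 4482, 3409, 3290.3 and 4783 in S and 1918, 1524, 1979.5, 1386 and 1814 in C (difference 1.21 ± 0.19, adjusted p = 0.000186), while *Ass1* and *Gls2* were lower.

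Markers of other cells gave no call. Over 9 lists (macrophages, endothelium, stellate cells, bile duct, lymphocytes, neutrophils, red blood cells, exocrine pancreas, intestine and kidney), 0 of 58 tested markers passed in limma, with 9 at unadjusted p under 0.05. For comparison, 7.99% of all tested genes passed, and 3981 of 18625 probe sets had an unadjusted limma p under 0.05. A single marker passed in each of the macrophage and the intestine and kidney lists without S replicate 1, and in the bile duct list without S replicate 5 and in 4 other settings. The 12 macrophage markers had a summed intensity of 32825 to 45559 in S and 37959 to 42756 in C, and 11 of their differences were negative. The adipose list had 1 call of 4, *Cidea*, described above.

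The second question was whether the differences recurred when both diets carried isoflavone. SI and CI share no animal or array with S and C, although the fit uses 1 spread for all. SI against CI gave 1341 of 10699 genes (12.5%), 749 higher (7%) and 592 lower (5.53%), or 2168 of 18625 probe sets (11.6%), 5.5% higher and 6.14% lower. The probe set count was 1353 without SI replicate 5, 1365 without CI replicate 4, 1381 without CI replicate 5 and 1410 without SI replicate 2. Of the 409 genes higher in S, 398 (97.3%) had a positive difference in SI against CI and 285 (69.7%) passed there, which is 38.1% of the 749. Of the 446 lower in S, 422 (94.6%) had a negative difference and 181 (40.6%) passed, 30.6% of the 592. Over all tested genes the sign was shared by 64.7%. The genes were chosen by the S against C values, so the medians of 0.47 in S against C and 0.43 in SI against CI for the higher ones, and of -0.48 and -0.30 for the lower ones, are given side by side only.

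**Figure D5:**
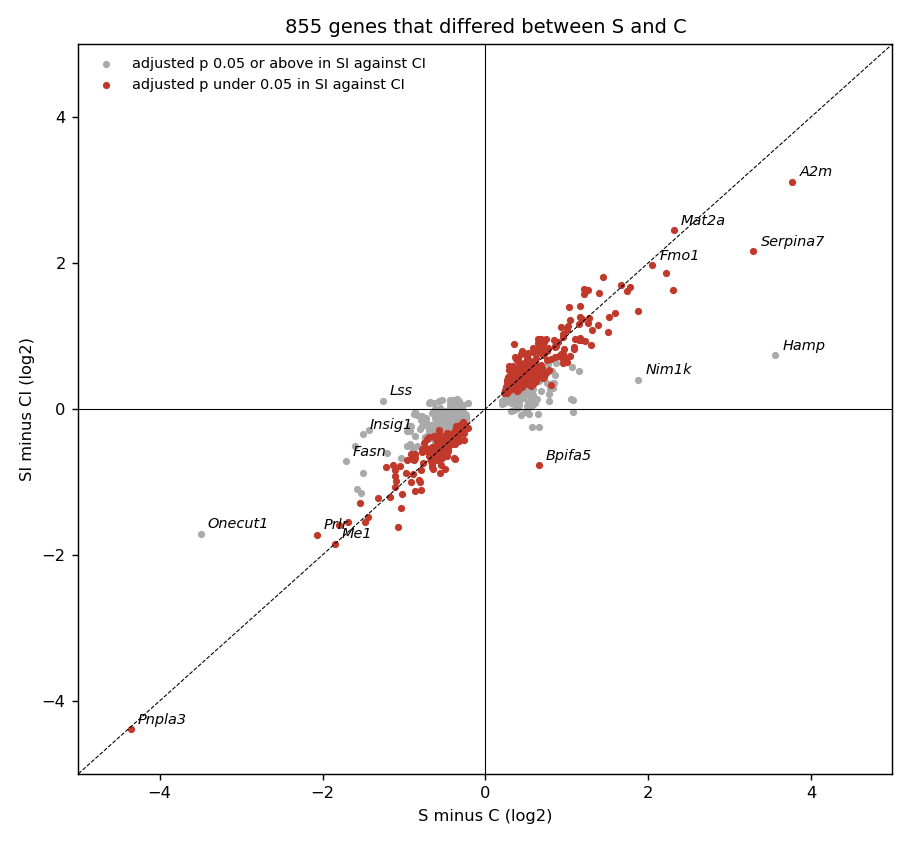
SI minus CI (y axis, log2) against S minus C (x axis, log2) for the 855 genes called in S against C, red where adjusted p was under 0.05 in SI against CI as well. The dashed line marks equal differences. *Pnpla3*, *Me1*, *Mat2a* and *Fmo1* lie on or near it, *Hamp*, *Nim1k*, *Onecut1* and *Lss* away from it, and *Bpifa5* has opposite signs.

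Several of the largest differences recurred at a similar size. SI minus CI was -4.39 ± 0.47 for *Pnpla3*, -1.85 ± 0.19 for *Me1*, 2.45 ± 0.18 for *Mat2a*, 1.97 ± 0.18 for *Fmo1* and 1.70 ± 0.24 for *Asns*. *Mat2a* had 3819, 5505, 4664, 4619.9 and 3519 in SI livers and 932, 926, 840.1, 753 and 607 in CI livers. *A2m* had 3445.5, 3133, 2727, 6668 and 5387 in SI and 416, 275, 547, 708 and 494 in CI, without overlap, and differed by 3.11 ± 0.37. Among the 24 genes with the largest differences, 16 passed in the same direction, 10 of 12 higher and 6 of 12 lower ones. *Prlr* (-1.73 ± 0.33), *Irs3* (-1.29 ± 0.25) and *Stac3* (-1.55 ± 0.42) were among them.

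Other genes were far less clear in the diets with isoflavone. *Hamp* had 652, 16692.5, 9933, 9021 and 30542 in SI and 5045, 5112, 15515, 16889.7 and 342 in CI. The groups overlapped over nearly their whole range, and the difference of 0.74 ± 0.87 did not pass (adjusted p = 0.619). *Onecut1* had 917, 415, 2196, 75.5 and 5015 in SI and 4343, 4605, 317, 4462 and 4176 in CI, with a single low CI liver and a single high SI liver (difference -1.71 ± 0.89, adjusted p = 0.213). *Fasn* gave -0.72 ± 0.47 and *Insig1* -0.35 ± 0.43 (adjusted p = 0.332 and 0.635). In the sterol group 2 genes were higher and 2 lower, with a median of -0.0037, against -0.39 for S and C, and *Lss* gave 0.11 ± 0.29 against -1.26 ± 0.29. In fatty acid synthesis 5 were lower and 0 higher, with a median of -0.22. *Acacb* (-1.07 ± 0.18), *Fads2* (-1.16 ± 0.16) and *Aacs* (-0.98 ± 0.19) were close to their values in S against C, and *Acss2* (-0.24 ± 0.17, adjusted p = 0.374) did not pass.

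None of these contrasts is shown to depend on isoflavone. The difference between the protein effects, (S minus C) minus (SI minus CI), was 2.82 ± 1.23 for *Hamp*, -1.79 ± 1.26 for *Onecut1*, -1.16 ± 0.61 for *Insig1*, -1.37 ± 0.41 for *Lss* and -1.002 ± 0.66 for *Fasn*, with adjusted p = 0.513, 0.647, 0.563, 0.435 and 0.626. No sterol gene passed this test, 0 of 19. Over all genes it passed for 2 of 10699 (0.0187%), or 3 of 18625 probe sets (0.0161%), while 1716 probe sets had an unadjusted p under 0.05. *Kcns2*, a potassium channel subunit, had 115, 752, 406, 326 and 861 in S and 124, 97.9, 176, 178 and 189 in C, but 76.8, 65.1, 304, 72.3 and 154.5 in SI and 797, 337, 778, 713 and 912 in CI. The S livers were mostly the higher of the first pair, and the SI livers were all the lower of the second (difference of effects 4.01 ± 0.69, adjusted p = 0.0262). *Bpifa5* had 342, 398, 309, 493 and 427.5 in S and 275, 279, 286, 251 and 166 in C, and 280.2, 295.5, 316, 361 and 188 in SI and 554, 429.6, 497, 528 and 415 in CI, without overlap in either pair (difference of effects 1.43 ± 0.26, adjusted p = 0.0397). These calls rest on few arrays: between 0 and 5 probe sets passed when 1 array was left out, and 0 passed without any one of S replicates 2, 4 and 5, C replicates 2 and 4, SI replicates 1, 4 and 5 and CI replicates 1, 3, 4 and 5.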

How the data were processed

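Liver RNA of 30 rats was labelled as biotinylated cRNA and read on 1-colour Affymetrix arrays, per the labels' protocols. The authors deposited linear intensity values, 1 per probe set and animal, which SuperNORM had normalized per the labels. The level to which that scale refers is not stated in the sources used here. The labels list identical SuperNORM parameters for C replicate 3 and CI replicate 3, and both were kept. The labels call the arrays of a diet biological replicates. The authors' own test results were not used here.

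Of 31099 probe sets 57 controls were left out. Intensities (0 to 129458.5, with 143 zeros) were set to at least 16 before log2 was taken, and probe sets with a mean above the 40th percentile (7.39, an intensity of 167.55) were tested. By the platform annotation 20832 probe sets had 1 symbol (20764 matched to a RefSeq record, with 0 changes), 436 had several and 9831 had none. For each gene the brightest tested probe set, by mean over all arrays, was used.

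A limma 3.58.1 model in R 4.3.3 estimated the mean of each diet over all 30 arrays (24 residual degrees of freedom, mean-variance trend, two-sided). Benjamini-Hochberg adjustment ran over 18625 probe sets within each of the comparisons S against C, SI against CI and their difference, with a threshold of 0.05. The code was tested on simulated data. The comparison, the 16 pathway and 13 cell type lists (671 entries, 606 named on the array, 515 different genes tested) and the alternatives were chosen with earlier results of these data known. Named genes were the 12 most higher and 12 most lower, up to 6 passing members per list, a fixed set, and the 6 of smallest interaction p, which gave 114 genes. Array-level measures were compared with an exact permutation test. Promoters are RefSeq's for GRCr8, and those of several leading genes (*A2m*, *Fasn*, *Onecut1*, *Socs2*) were not used here. Alternatives were 3 other scalings, floors of 1 and 64, no filter or a 60th percentile filter, no trend, array weights, a replicate block, only the groups compared, a threshold of 0.01, the mean of a gene's probe sets, each array left out, and the replicates 3 of C and CI dropped together. The number of arrays limits the precision, with a median residual SD of 0.207 (log2).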

Additional observations from a re-analysis of the deposited data

Results flagged for a closer look

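In 10 of 228 diet groups of named genes, 1 array stood apart from the other four of its diet by Dixon's criterion, which chance meets in about 1 of 20 groups. Among S arrays, replicate 4 was high for *Cidea*, at 9.635 (log2) where the others lay at 8.868 to 9.063, and for *Oat*, at 12.2 against 11.89 to 11.96. Replicate 3 of S was low for *Sebox*, at 8.6 against 8.885 to 8.945, and for *Orm1*, at 14.93 against 15.2 to 15.26. Among C arrays, replicate 1 was high for *Mat2a*, at 10.34 against 9.531 to 9.681, and for *Ireb2*, at 9.792 against 9.236 to 9.396. Replicate 2 of C was low for *Glul*, at 12.24 against 12.53 to 12.64, and replicate 3 for *Stac3*, at 10.64 against 12.35 to 12.88. Replicate 5 of C was low for *Afmid*, at 11.09 against 11.38 to 11.46, and for *Bpifa5*, at 7.373 against 7.969 to 8.16.

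The effect of the protein source differed between diets without and with isoflavone for *Kcns2*, by 4.014, and for *Bpifa5*, by 1.43, on the log2 scale (limma interaction, adjusted p = 0.0262 and 0.0397). *Kcns2* gave 1.42 ± 0.49 in S against C, which did not pass (adjusted p = 0.0729; adjusted p 0.0125 to 0.203 over the S and C arrays left out, passing without S replicate 1), and -2.59 ± 0.49 in SI against CI. *Bpifa5* gave 0.66 ± 0.18 and -0.77 ± 0.18, and its S against C call was lost without S replicates 2, 4 or 5 or C replicate 5 (difference then 0.51 to 0.65, adjusted p 0.0525 to 0.0912).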

How the results depend on the processing

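Of 2609 values of single named genes and settings, 2451 kept direction and side of the threshold, 144 kept direction and no longer passed, 13 newly passed and 1 reversed: *Smad5*, at 0.0029 for the mean of its probe sets (adjusted p = 0.991). Of 80 named genes that passed, 49 did so at 0.05 in every setting that gave them a value, and 59 whichever S or C array was left out. A gene had 23 such settings, or 22 for some genes, *Asns* among them. The threshold of 0.01 was not among them, and *Hamp*, *Stac3* and *Onecut1* did not reach it (limma adjusted p = 0.0102, 0.0114 and 0.0137). Probe sets called in S against C numbered 590 at a threshold of 0.01, and 898 to 1302 with 1 array left out. In SI against CI the counts were 772 at 0.01 and 1353 to 2217 with 1 array left out. The interaction gave 0 to 5 with 1 array left out, 0 with the 60th percentile filter, 0 at 0.01, 0 with C replicate 3 and CI replicate 3 left out together, 1 with only the groups compared and 1 with the replicate block. The cause of these changes was not tested, beyond fewer arrays, fewer probe sets or a stricter threshold where a setting has them. Of 667 counts of called members per list and setting, 58 moved by over 1.5 times. At 0.01 the fatty acid list had 7 calls, the growth hormone list 2, the oxidation list 2, the amino acid breakdown list 4 and the iron list 3. The median difference of all probe sets was -0.04 on the deposited scale and 0.0006, -0.02 and -8.57e-05 under quantile normalization, median centring and equal median and spread. The labels give array numbers no shared animal or batch, and the values leave a pairing unsettled. Deviations of same-numbered arrays correlated at -0.0131 to 0.314 for S and C and at -0.0062 to 0.253 for SI and CI, in each case with 3 of 5 over 0.1 and 3 of 5 arrays best matched by their own number. With the replicate number as a block the counts were 1693 for S against C and 2541 for SI against CI, *Tfrc*, *Acaca* and *Kcns2* passed in S against C (adjusted p = 0.0357, 0.0454 and 0.0445), and *Eif4ebp1* did not (adjusted p = 0.0563).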

Other observations

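Beyond the genes that passed, the interaction test ranked 4 others first that did not. *Endog*, a mitochondrial endonuclease, had 703, 655, 641, 590.4 and 638.5 in S and 431, 468, 384, 328 and 476 in C, without overlap, but 595, 511, 461.5, 543 and 506.5 in SI and 652, 629, 527, 454 and 508 in CI (difference of effects 0.71 ± 0.15, adjusted p = 0.264). *Rpl39*, a ribosomal protein gene with near-identical copies in the genome, had 728, 246, 208, 899.6 and 734 in S and 686, 811, 1015, 814.5 and 709 in C, with S replicates 2 and 3 low and the other three within the C range (difference of effects -2.07 ± 0.50, adjusted p = 0.364). *Tp53i11* gave -0.12 ± 0.08 in S against C and 0.38 ± 0.08 in SI against CI, and *Pros1*, the anticoagulant protein S, gave 0.07 ± 0.09 in S against C and -0.47 ± 0.09 in SI against CI (adjusted p of the difference of effects 0.364 for each).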
